A study of Homo sapiens with 16 samples.

Results

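The MCM genes were followed in MiaPaCa2 and PANC1 cells after treatment with gemcitabine, genistein or both. The 10 members, out of 63677 genes in the count table, were taken by symbol from the gene FPKM table and joined to the counts by Ensembl identifier: MCM2, MCM3, MCM4, MCM5, MCM6, MCM7, MCM8, MCM9, MCM10 and MCMBP. All 10 passed the filter on low counts in both cell lines.

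MiaPaCa2 and PANC1 are established human pancreatic ductal carcinoma lines. Cells of each line served as controls, called untreated here, or were treated with 40 nM gemcitabine, a nucleoside analogue that blocks DNA synthesis, with 50 µM genistein, a plant isoflavone, or with both (co-treatment). Genistein was prepared in DMSO, and the labels do not say whether the controls received that solvent. The treatment lasted 24 hours. Both lines were grown in DMEM with fetal bovine serum, and each of the 4 groups per line had 2 replicates, labelled I and II, so that 16 poly-A libraries were sequenced. The labels do not say that the replicates were separate cultures, although the study's methods call them biological, and p-values measure the spread between these samples.

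MCM2 to MCM7 form a ring of 6 different subunits that is loaded onto replication origins in G1 phase, as an inactive pair of rings, and becomes the core of the replicative helicase once CDC45 and the GINS complex join it in S phase. Cells load far more rings than they use, and the spare ones serve as a reserve when forks stall, as they do when gemcitabine starves the fork of nucleotides. MCM8 and MCM9 are related helicases that work together in homologous recombination repair. MCM10 is not a member of the helicase family but helps the loaded ring start unwinding, and MCMBP binds free MCM subunits and helps to keep their supply. Transcription of MCM genes is known to rise at the G1/S transition under E2F factors that bind such promoters.

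The letters of E2F sites are shown because they are a feature that some members share and that the choice of members did not use. RefSeq promoter windows of the GRCh38.p14 build, from 250 bases before to 50 bases after a transcription start, were searched on both strands for TTTCGCGC, TTTGGCGC, TTTCCCGC and TTTGCCGC. The table held windows for 8 members, all but MCM4 and MCM5. Of these 8, with 11 windows, 6 had at least 1 match, whereas 3.99% of the 27305 genes with a window did (3.31% of all 35116 windows). Of 21 partner genes of the ring with a window, described further on, 11 had a match. The same strings without their first T, which every match to the longer strings also holds, were found in 6 of the 8 members and in 15.3% of genes. Each match is printed in a window of 30 bases, 5′ to 3′ on the strand of the gene, with the matched letters in capitals. Where a match on each strand overlaps the other, the joined run is in capitals.
MCM2 (chr3:127598404-127598433, plus strand): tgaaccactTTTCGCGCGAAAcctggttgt
MCM3, distal (chr6:52284898-52284927, minus strand): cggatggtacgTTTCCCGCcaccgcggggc
MCM3, proximal (chr6:52284728-52284757, minus strand): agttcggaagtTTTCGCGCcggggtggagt
MCM6, distal (chr2:135876575-135876604, minus strand): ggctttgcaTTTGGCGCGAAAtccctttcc
MCM6, proximal (chr2:135876513-135876542, minus strand): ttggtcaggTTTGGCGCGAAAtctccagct
MCM7, distal (chr7:100101566-100101595, minus strand): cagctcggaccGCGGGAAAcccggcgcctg
MCM7, proximal (chr7:100101388-100101417, minus strand): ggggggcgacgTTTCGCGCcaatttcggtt
MCM8 (chr20:5950667-5950696, plus strand): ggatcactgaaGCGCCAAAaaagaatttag
MCMBP (chr10:119872834-119872863, minus strand): ggcggcggctaTTTCCCGCcattgtgcgaa

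The matches of MCM2 and MCM6 read the same site from both strands, giving a run of 12 letters. In MCM2 the run began 2 bases after the start, and in MCM6 the 2 runs began 152 and 90 bases before it. MCM3 and MCM7 each had a match within 10 bases before a start, at 4 and 9 bases, and a more distant match at 174 and 187 bases. MCMBP had its match 9 bases before a start and MCM8 had it 26 bases after. MCM9 and MCM10 had none in these windows. The CCAAT box letters (CCAAT) were in the windows of 6 of the 8 members and of 39.7% of all genes, and the CHR letters (TTTGAA) were in those of 0 of the 8 and of 18.2% of all genes. A match is only a run of letters, and no binding was measured.

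Levels were compared between members as FPKM, reads per kilobase of transcript scaled to the depth of the library, which corrects for length. In the mean over the 16 libraries MCM4 stood highest at 514 FPKM, followed by MCM7 at 308, MCM5 at 145, MCM3 at 138, MCM2 at 110.5 and MCM6 at 89.5. The levels of MCM5 and MCM3 overlapped across libraries, from 83.2 to 258 FPKM and from 105.3 to 189 FPKM, as did those of MCM2, from 76.0 to 170.2 FPKM, and MCM6, from 60.4 to 113.9 FPKM. MCMBP had 58.6, MCM10 20.0, MCM8 18.8 and MCM9 5.66 FPKM in the mean. The 6 subunits of the replicative ring were therefore listed above the other 4 members in the mean.

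The order among the 6 subunits depended on how length was counted. With CPM (counts scaled to library size) divided by the exon length of the gene, MCM7 was highest at 124 CPM per kilobase, followed by MCM3 at 115.1, MCM2 at 92.4, MCM6 at 58.9, MCM4 at 53.1 and MCM5 at 25.0, which was then below MCMBP at 30.03. The isoform FPKM of the same deposit showed where the FPKM of MCM4 and MCM7 lay. Transcripts annotated as protein coding held 11.4 to 17.5% of the isoform FPKM of MCM4 and 5.12 to 10.5% of that of MCM7, whereas they held at least 98.9% for MCM3 and 81.7 to 98.0% for MCM2. The largest share of MCM7 was assigned to a retained intron transcript, with 44.2 to 55.0%, and that of MCM4 to a transcript annotated for nonsense-mediated decay, with 26.4 to 30.6%. These shares were estimated from single reads of 50 bases, which rarely tell isoforms apart. Short transcripts raise FPKM per read, so the FPKM order of MCM4 and MCM7 was not taken as an order of their helicase mRNAs.

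The share of all counts that fell on the 10 members separated the libraries by gemcitabine. In MiaPaCa2 it was 0.242 and 0.236% in the controls, 0.249 and 0.244% with genistein, 0.287 and 0.284% with gemcitabine and 0.285 and 0.280% with co-treatment. In PANC1 it was 0.239 and 0.229% in the controls, 0.230 and 0.232% with genistein, 0.368 and 0.363% with gemcitabine and 0.339 and 0.340% with co-treatment. Every library with gemcitabine lay above every library without it, in both lines, and the PANC1 libraries with gemcitabine lay above those of MiaPaCa2. These are sums of the members, which did not all move alike.

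**Figure D1:**
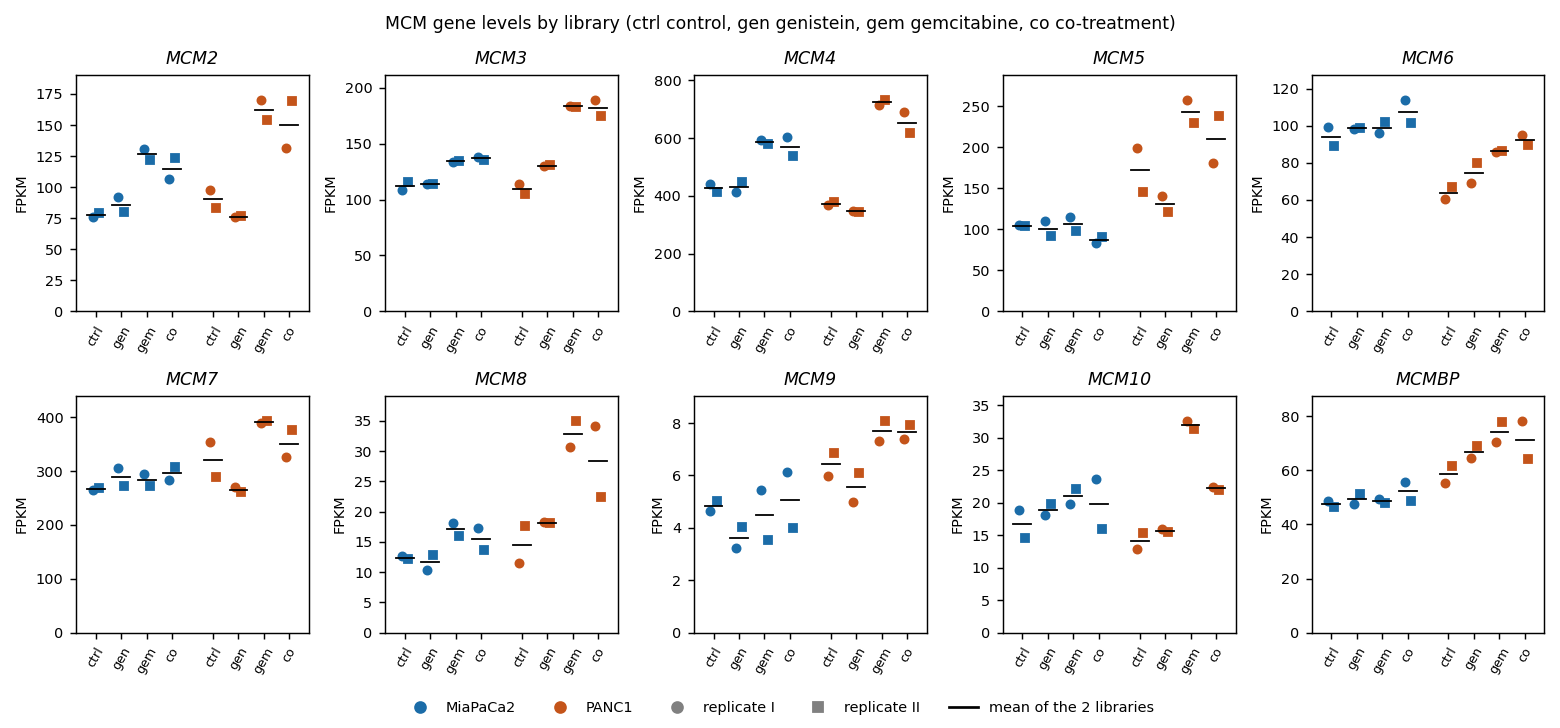
FPKM of the 10 MCM genes (vertical axes, each from 0) in the 16 libraries, with 4 groups per cell line along the horizontal axes; circles are replicate I, squares replicate II and black bars the mean of both. By FPKM, MCM2, MCM3, MCM4 and MCM8 lay above their controls in all libraries with gemcitabine of both lines, MCM7 did so in MiaPaCa2, and MCM6, MCM9, MCM10 and MCMBP did so in PANC1, while MCM5 did so in neither line. By CPM, MCM7 in MiaPaCa2 went the other way with gemcitabine alone, at 557 and 564 against 592 and 579 in the controls. MCM9 and MCMBP overlapped their controls in PANC1 by CPM.

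Total counts ran from 12943482 to 31991860 per library. Replicates differed beyond sampling noise in every group, and most in the PANC1 controls, where chi-square per degree of freedom was 32.0 against 2.70 to 19.7 in the other groups. The PANC1 controls also differed in how counts followed GC content: per 10 percentage points of GC, log2 CPM deviated from the line's mean by 0.29 in control I and by -0.07 in control II. The MiaPaCa2 controls had slopes of -0.23 and -0.14 and the MiaPaCa2 co-treatment libraries 0.05 and 0.29. MCM5, MCM2 and MCM7 are rich in GC, at 55.1 to 56.2% of exon bases, and MCM6, MCM8 and MCM9 are poor in it, at 40.9 to 42.4%. Values of members after correction for GC content are therefore given where they change a call. Values of the partner and cell cycle phase genes described further on are without this correction. The shares of all genes given below are without this correction. Counts of members called after it therefore have no background share to be read against. As a check of the cell type label, keratins KRT8 and KRT18 were at 369 FPKM or more in every library, the acinar markers PRSS1 and CPA1 and the islet markers INS and GCG were at 0 in all 16, and the acinar marker CELA3A reached at most 0.367 FPKM. KRT19 was at 56.5 to 749 FPKM and SOX9 at 6.37 to 27.3 FPKM. The ductal keratin KRT7 was at only 0.170 to 1.70 FPKM in MiaPaCa2 and at 3.95 to 21.1 FPKM in PANC1. The mesenchymal marker VIM was at 1398 to 3875 FPKM, above KRT8, which reached at most 1076 FPKM. Of the blood and vessel markers, PTPRC, CD3E and VWF reached at most 0.0777 FPKM, while CD68, a lysosomal protein of macrophages and other cells, was at 14.2 to 37.6 FPKM in MiaPaCa2 and 108.3 to 221 FPKM in PANC1. EPCAM was listed at 0 in all MiaPaCa2 libraries, and CDH1 reached at most 0.0213 FPKM there, so these epithelial markers were absent from MiaPaCa2, while in PANC1 EPCAM was at 7.71 to 12.8 FPKM.

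The untreated lines were compared to see where they start. MCM5 was higher in PANC1, at 199 and 145.9 FPKM in the controls against 105.2 and 103.95 in MiaPaCa2. MCM6 was lower, at 60.4 and 67.1 FPKM against 99.3 and 88.8. MCM10 was at 12.8 and 15.4 FPKM in PANC1 and at 18.9 and 14.5 in MiaPaCa2, so that its FPKM overlapped between the lines. In counts, a gene was called where its Benjamini-Hochberg adjusted p reached 0.05 or less, its log2 fold change was 0.4 or more in size and its mean FPKM exceeded 1. By these criteria MCM5 was called higher in PANC1 and MCM6 and MCM10 were called lower. The background was wide, since 27.9% of the 17863 genes tested were called higher and 24.3% lower.

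For MCM5 the log2 fold change of PANC1 over MiaPaCa2 was 0.62 (SE 0.19, limma-voom, adjusted p = 0.0102), but it fell to 0.29 after GC correction and the call was lost, also without PANC1 control I, where it was 0.35, and without MiaPaCa2 control I, where it was 0.52. MCM6 changed by -0.54 (SE 0.08, adjusted p = 2.93e-05) and kept its call under all alternatives run. MCM10 changed by -0.57 (SE 0.14, adjusted p = 0.00256), with the call lost on log2 FPKM scales. MCM4 was lower by -0.26 (SE 0.07, adjusted p = 0.00683), under the fold criterion, and was called after GC correction, at -0.47 (adjusted p = 2.54e-07). The other 6 members were not called.

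Gemcitabine alone raised 5 of the 10 members in PANC1. These were MCM2, MCM3 and MCM4 of the replicative ring, the activator MCM10 and the repair helicase MCM8. In the same comparison 4.49% of the 16909 genes tested were called higher and 3.03% lower, so 5 of 10 was a larger share than the background. No member was called lower, and the log2 fold changes of all 10 were above 0, with a median of 0.47 against 0.03 over all genes tested.

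MCM10, which helps the helicase start, rose most. Its FPKM was 12.8 and 15.4 in the PANC1 controls and 32.6 and 31.4 with gemcitabine, with no overlap. The log2 fold change was 1.14 (SE 0.16, limma-voom, adjusted p = 0.00825), a fold of 2.21 with a 95% interval from 1.71 to 2.86.

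MCM8, the repair paralog, went from 11.5 and 17.6 FPKM in the controls to 30.8 and 34.99 with gemcitabine. Its log2 fold change was 1.04 (SE 0.22, adjusted p = 0.031). The controls lay far apart, and the call was lost with the replicate block, on log2(FPKM + 1) and without PANC1 control I. Of its exon bases 33.3% also lie in another protein-coding gene on the same strand, ENSG00000286235, in GENCODE v44lift37. Whether the annotation used for counting held that gene is not given.

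MCM4, a ring subunit, was at 367 and 379 FPKM in the controls and at 715 and 732 with gemcitabine. The log2 fold change in counts was 0.88 (SE 0.08, adjusted p = 0.0019), a fold of 1.84 with a 95% interval from 1.62 to 2.09. Of the 5 calls, that of MCM4 alone was kept whichever of the 4 libraries was left out.

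MCM2 rose from 97.9 and 83.3 FPKM in the controls to 170 and 154 with gemcitabine, by a log2 fold change of 0.74 (SE 0.13, adjusted p = 0.0182). MCM3 rose from 114.2 and 105.3 FPKM to 184 and 183, by 0.57 (SE 0.08, adjusted p = 0.00742). Neither group overlapped its controls. Without gemcitabine replicate I, and likewise without II, the calls of MCM2, MCM3, MCM8 and MCM10 were lost, leaving MCM4. All 5 calls held after GC correction, at 0.54 to 1.05 on the log2 scale.

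The other ring subunits were not called in PANC1 with gemcitabine. MCM5 had a log2 fold change of 0.37 (95% interval -0.03 to 0.77), and its controls, at 199 and 146 FPKM, were far apart beside 258 and 230 with gemcitabine. MCM6 had 0.31 (0.10 to 0.52, adjusted p = 0.0745) and MCM7 0.24 (-0.01 to 0.48), MCM9 0.13 (-0.22 to 0.49) and MCMBP 0.22 (-0.05 to 0.48). The interval of MCM5 covers the changes of MCM2 and MCM3, and differences between members were not tested.

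In MiaPaCa2 MCM2 was the 1 member called with gemcitabine alone, and MCM4 passed the adjusted p but not the fold criterion. MCM2 was at 76.2 and 78.9 FPKM in the controls and at 131 and 122 with gemcitabine. The log2 fold change was 0.54 (SE 0.10, limma-voom, adjusted p = 0.000876), a fold of 1.46 with a 95% interval from 1.26 to 1.68. After GC correction it was 0.31 with an adjusted p of 0.000311, below the fold criterion. This line had a broad response, in which 14.9% of the 16064 genes tested were called higher and 14.6% lower, so 1 member of 10 was no more than the background share.

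MCM4 went from 441 and 413 FPKM in the MiaPaCa2 controls to 593 and 581 with gemcitabine, without overlap, by a log2 fold change of 0.38 in counts (SE 0.08, adjusted p = 0.00203), just under the fold criterion of 0.4. MCM8 had 0.30 (SE 0.13, adjusted p = 0.0766) and was called after GC correction, at 0.45. MCM10 had 0.21 (95% interval -0.04 to 0.46) and MCM3 0.15 (SE 0.07). MCM5, MCM6, MCM7 and MCMBP had values from -0.16 to -0.05, and MCM9 had 0.04. The median over the members was 0.09, against -0.01 over all genes tested. After GC correction MCM5 was at -0.37 (limma, adjusted p = 0.00104) and MCM7 at -0.35 (adjusted p = 6.65e-05), under the fold criterion. MCM4, at 0.34, and MCM10, at 0.275, also passed the adjusted p there, under the fold criterion.

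**Figure D2:**
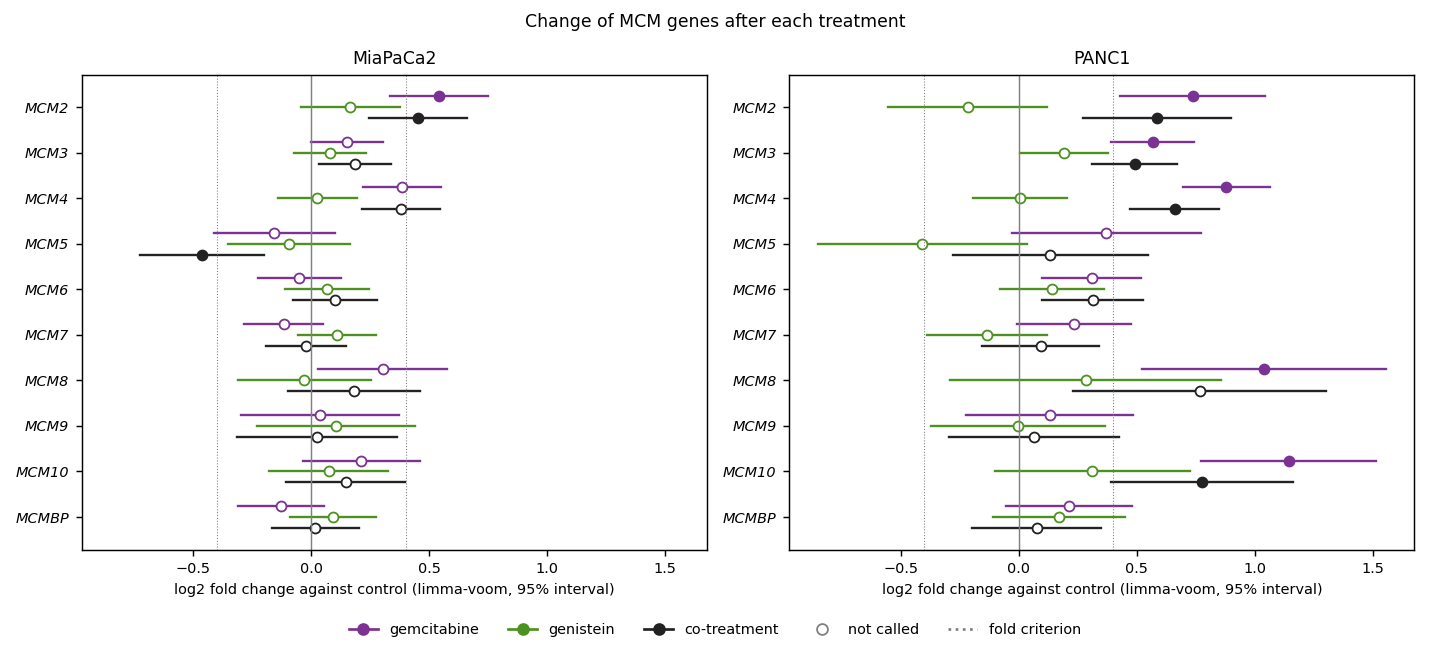
Log2 fold change against control of the 10 MCM genes from limma-voom (horizontal axis) with 95% intervals, for gemcitabine, genistein and co-treatment in each line; filled circles were called, open circles were not, and dotted lines mark the fold criterion of 0.4. In PANC1 all gemcitabine values lie above 0 and 5 are filled, while in MiaPaCa2 only MCM2 is filled with gemcitabine and the genistein values are open in both lines.

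Whether the gemcitabine response differed between the lines was tested directly, with an adjusted p of at most 0.05 as the criterion. For MCM10 the response was larger in PANC1 by 0.84 on the log2 scale (SE 0.19, limma-voom, adjusted p = 0.0121), and for MCM4 by 0.40 (SE 0.10, adjusted p = 0.0202). The other 8 members were not called, although 15.3% of the 17863 genes tested were. MCM3 missed the threshold at 0.32 (adjusted p = 0.0584), and MCM2, called with gemcitabine in each line, differed by 0.10 (95% interval -0.33 to 0.53). After GC correction 7 members were called, all larger in PANC1, at 0.45 to 0.78, with MCM2, MCM3, MCM5, MCM7 and MCM8 joining. The 15.3% is without that correction, so no background share stands beside these 7.

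Genistein alone was asked about in the same way. No member was called in MiaPaCa2, where 8.3% of all genes were, and 0 members had an unadjusted p under 0.05. None was called in PANC1, where 0.0591% of all genes were, and 1 member, MCM3, had an unadjusted p under 0.05 (log2 fold change 0.19, limma-voom, adjusted p = 0.25). The counts of members called were also 0 with edgeR and with DESeq2 in both lines. The shares of all genes here are those of limma-voom. Of all genes in PANC1, limma-voom called 10, edgeR 12 and DESeq2 753. The study reports many more genes as changed by genistein alone in both lines than limma-voom called here in PANC1. The absence of called members in PANC1 therefore does not show that genistein left them unchanged. The members lay between -0.10 and 0.16 on the log2 scale in MiaPaCa2 and between -0.41 and 0.31 in PANC1.

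The widest intervals with genistein were those of PANC1. MCM5, at 140 and 121 FPKM beside its controls at 199 and 146, had -0.41 (95% interval -0.85 to 0.03), and MCM8 had 0.28 (-0.29 to 0.86). MCM4 had 0.01 (-0.19 to 0.21) in PANC1 and 0.03 (-0.14 to 0.19) in MiaPaCa2, which leaves out changes of the size seen with gemcitabine. The genistein response was not shown to differ between the lines for any member: 0 were called with limma-voom, edgeR and DESeq2, 0 had an unadjusted p under 0.05 in limma-voom and 1 in each of the other tools, and 0.0336% of all genes were called by limma-voom. Of all genes limma-voom called 6, edgeR 19 and DESeq2 185.

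Co-treatment raised 4 members in PANC1, MCM2, MCM3, MCM4 and MCM10, all of which were also called with gemcitabine alone. Both comparisons share the control libraries. Here 10.2% of the 16909 genes tested were called higher and 6.9% lower, and the median was 0.40 for the members and 0.01 for all genes.

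MCM4 was at 690 and 617 FPKM with co-treatment, against 367 and 379 in the controls, and its log2 fold change was 0.66 (SE 0.08, limma-voom, adjusted p = 0.00211). MCM10 was at 22.4 and 22.0 FPKM, between the controls at 12.8 and 15.4 and the gemcitabine libraries at 32.6 and 31.4, with 0.78 (SE 0.17, adjusted p = 0.0163). MCM2 was at 131 and 169 FPKM, with 0.59 (SE 0.14, adjusted p = 0.0216), and MCM3 at 189 and 175 FPKM, with 0.49 (SE 0.08, adjusted p = 0.00501). Of the 4, MCM4 alone held when only the control and co-treatment libraries were fitted, and MCM3 was under the fold criterion after GC correction, at 0.38. Without PANC1 control replicate II the calls of MCM2, at 0.41, and MCM3, at 0.39, were lost, without co-treatment replicate II that of MCM2 and without co-treatment replicate I that of MCM10, at 0.61.

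MCM8 missed the call with co-treatment in PANC1. It was at 34.2 and 22.5 FPKM against 11.5 and 17.6, without overlap, and had 0.77 (SE 0.23, adjusted p = 0.0532). It was called after GC correction, at 0.67, and with edgeR and DESeq2 5 members in all were called. MCM6, at 95.1 and 89.7 FPKM against 60.4 and 67.1, had 0.31 (SE 0.09, adjusted p = 0.0483), under the fold criterion. MCM5, MCM7, MCM9 and MCMBP had values of 0.07 to 0.14.

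In MiaPaCa2 the members split with co-treatment. MCM2 rose, at 106.8 and 123 FPKM against 76.2 and 78.9 in the controls, with a log2 fold change of 0.45 (SE 0.10, limma-voom, adjusted p = 0.00162). MCM5 fell, at 83.2 and 90.3 FPKM against 105.2 and 103.95, with -0.46 (SE 0.12, adjusted p = 0.00649). In this comparison 20.3% of the 16064 genes tested were called higher and 20.2% lower, and 1 member of 10 each way was below these shares.

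The opposite moves of MCM2 and MCM5 did not both withstand the processing. After GC correction MCM2 was at 0.15 and lost its call, and MCM5 was at -0.77 and kept it. Without MiaPaCa2 co-treatment replicate II the call of MCM2 was lost, at 0.34. That of MCM5 was lost without co-treatment replicate I, at -0.33, and without control replicate II, and it was lost too with library size only, on log2 FPKM scales and with all 16 libraries in 1 model. MCM4 had 0.38 (SE 0.08, adjusted p = 0.00122), MCM3 0.18 (SE 0.07, adjusted p = 0.0426), and the other 6 members lay from -0.02 to 0.18. After GC correction MCM7 was at -0.33 (limma, adjusted p = 6.09e-05), under the fold criterion. MCM8 at 0.37, MCM9 at 0.31 and MCM4 at 0.28 also passed the adjusted p, under the fold criterion. So did MCM6 at 0.27, MCM10 at 0.20 and MCM2 at 0.15.

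**Figure D3:**
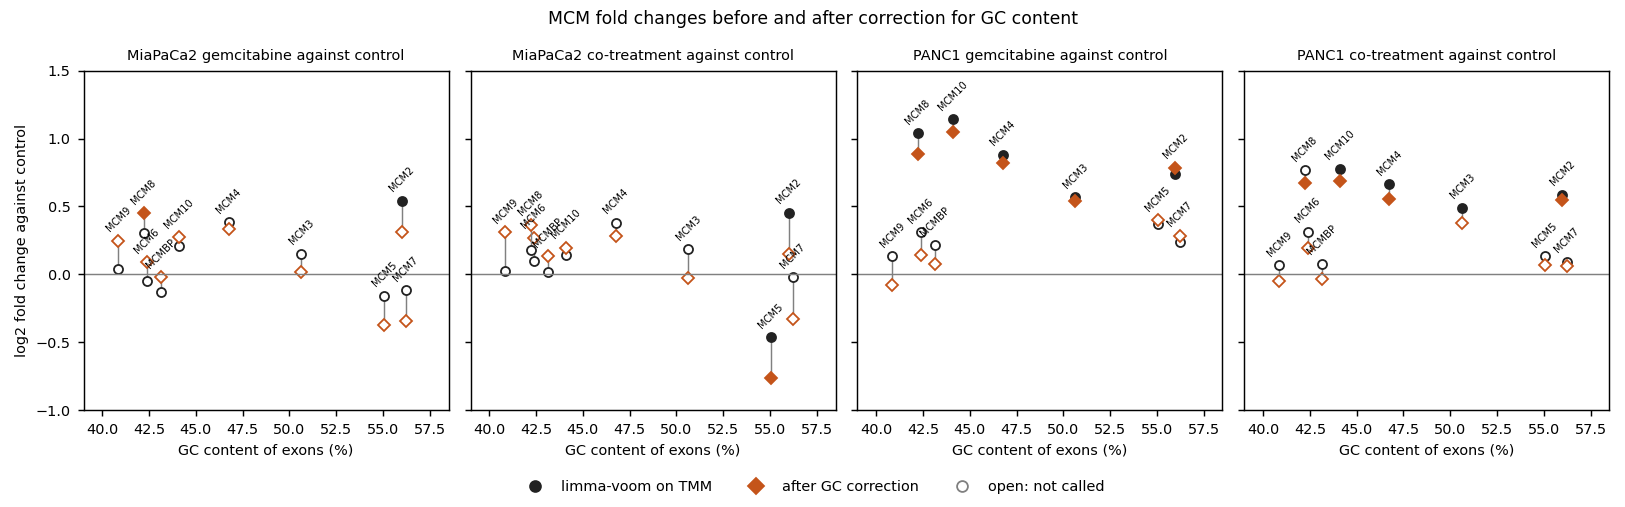
Log2 fold change against control (vertical axis) of the 10 MCM genes, placed by the GC content of their exons in percent (horizontal axis), from limma-voom (circles) and after correction for GC content (diamonds), with filled marks for calls. In MiaPaCa2 the points of MCM2, MCM3, MCM4, MCM5 and MCM7 moved down and those of the other 5 members moved up with the correction, while in PANC1 with gemcitabine the 5 calls stayed.

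The co-treatment response was not shown to differ between the lines for any member by limma-voom, in which 0 members were called, 1 (MCM10, at 0.55, adjusted p = 0.0638) had an unadjusted p under 0.05, and 18.1% of all genes were called. edgeR called 0 and DESeq2 called 1. After GC correction 6 were called, MCM2, MCM3, MCM4, MCM5, MCM7 and MCM10, all larger in PANC1, at 0.26 for MCM4 to 0.81 for MCM5. The 18.1% is without that correction and is no background for these 6.

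Genistein added to gemcitabine did not change any member enough to be called. In MiaPaCa2 0 members were called by limma-voom, edgeR and DESeq2, beside 5.88% of all genes, and 1, MCM5, had an unadjusted p under 0.05, with a log2 fold change of -0.31 (95% interval -0.57 to -0.04, adjusted p = 0.147). After GC correction in MiaPaCa2, MCM5 was at -0.39 (limma, adjusted p = 0.0026) and MCM6 at 0.18 (adjusted p = 0.0259), under the fold criterion. In PANC1 0 members were called by the 3 tools, beside 0.0177% of all genes in limma-voom. Of all genes limma-voom and edgeR each called 3 and DESeq2 207. The study reports many more genes as changed by this addition in both lines than limma-voom called here in PANC1. The lack of member calls in PANC1 therefore does not show that no member changed. Unadjusted, MCM4 at -0.22 (-0.40 to -0.04, adjusted p = 0.305) and MCM10 at -0.37 (-0.73 to -0.0025, adjusted p = 0.371) were under 0.05 in PANC1 with limma-voom. After GC correction no member was called either, but MCM4 (-0.27, adjusted p = 0.00647), MCM10 (-0.36, adjusted p = 0.0176), MCM2 (-0.24), MCM7 (-0.23) and MCM5 (-0.33) had an adjusted p of at most 0.05, under the fold criterion. Without that correction 9 of the 10 members had a value below 0 in PANC1, the exception being MCM6 at 0.0037. The 2 MCM10 libraries with co-treatment, at 22.4 and 22.0 FPKM, both lay below the 2 with gemcitabine, at 32.6 and 31.4.

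Gemcitabine added to genistein raised MCM2 and MCM4 in PANC1. MCM2 was at 131 and 169 FPKM with co-treatment against 76.0 and 76.6 with genistein, a log2 fold change of 0.80 (SE 0.15, limma-voom, adjusted p = 0.0196). MCM4 was at 690 and 617 FPKM against 348 and 345, a change of 0.66 (SE 0.09, adjusted p = 0.00675). In this comparison the background was 3.87% of all genes higher and 4.31% lower. The replicate block ended the call of MCM2, as did leaving out co-treatment replicate II, and the calls of both were lost without genistein replicate I and without II. MCM5 (0.54, adjusted p = 0.124), MCM8 (0.48, adjusted p = 0.249) and MCM10 (0.46, adjusted p = 0.14) were not called, and were called after GC correction, at 0.47, 0.50 and 0.51.

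In MiaPaCa2 the same comparison called 0 members by limma-voom, edgeR and DESeq2, beside 16.6% of all genes called higher and 14.9% lower. The 3 members with an unadjusted p under 0.05 also passed the adjusted p, but not the fold criterion: MCM4 at 0.35 (adjusted p = 0.00279), MCM2 at 0.29 (adjusted p = 0.0272) and MCM5 at -0.37 (adjusted p = 0.0278). After GC correction MCM5 was called lower, at -0.59 (adjusted p = 1.107e-05), while MCM2 was at 0.06 (adjusted p = 0.409). MCM7, at -0.36 (limma, adjusted p = 3.447e-05), MCM8, at 0.31, and MCM4, at 0.29, passed the adjusted p there, under the fold criterion.

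The interaction asks whether the change with both drugs departed from the sum of the single changes on the log2 scale. No member was called in either line by limma-voom, edgeR or DESeq2, beside 0.0249% of all genes in MiaPaCa2 and 0% in PANC1 with limma-voom. DESeq2 called 46 genes in MiaPaCa2 and 4 in PANC1. In MiaPaCa2 0 members had an unadjusted p under 0.05. In PANC1 there were 2 with limma-voom, MCM10 at -0.68 (95% interval -1.23 to -0.13, adjusted p = 0.734) and MCM3 at -0.27 (-0.53 to -0.01, adjusted p = 0.734). The intervals for MCM4 ran from -0.50 to 0.05 in PANC1 and from -0.26 to 0.21 in MiaPaCa2.

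The genes that act with the MCM ring were described from a list of 26 by role: loading of the ring, its inhibitor geminin, activation, unloading and the MCM8 to MCM9 partners. In PANC1 with gemcitabine 10 of the 26 were called higher and 0 lower, beside 4.49% and 3.03% of all genes, and the median over the 26 was 0.59 on the log2 scale. CDC6, which recruits the ring with CDT1, rose by 1.36 (SE 0.09, limma-voom, adjusted p = 0.000696), and GINS3, a subunit of the GINS complex of the active helicase, by 1.26 (SE 0.12, adjusted p = 0.00246). ORC6, a part of the origin recognition complex, rose by 0.82, and DONSON, a factor of helicase assembly, by 0.80.

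In PANC1 with co-treatment, where 10.2% of all genes were called higher and 6.9% lower, 8 of the 26 were called higher and 0 lower, among them CDC6 at 1.35, the GINS subunits GINS4 at 0.95 and GINS3 at 0.76, and CDC45, the partner of the ring in the active helicase, at 0.85. With co-treatment against genistein 5 were called higher by limma-voom, led by the same 4 genes, 7 by edgeR and 9 by DESeq2, beside 3.87% of all genes in limma-voom. With genistein alone limma-voom and edgeR called 0 and DESeq2 called 2, and 5 had an unadjusted p under 0.05 in limma-voom. Of all genes limma-voom called 10, edgeR 12 and DESeq2 753 there. With co-treatment against gemcitabine the 3 tools called 0, and 3 had an unadjusted p under 0.05 in limma-voom. As for the members, calls of 0 in these PANC1 comparisons do not show that no partner changed.

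In MiaPaCa2 the partners moved both ways, by values without GC correction. With gemcitabine 8 of 25 tested were called higher and 5 lower, beside 14.9% and 14.6% of all genes. With co-treatment 10 were called higher and 7 lower, beside 20.3% and 20.2% of all genes. The loading factor CDT1 was called higher with gemcitabine, at 1.301 (SE 0.17, limma-voom, adjusted p = 0.000122), and with co-treatment, at 1.19. GINS4 rose by 0.66 with gemcitabine, by 0.62 with genistein and by 1.13 with co-treatment, RECQL4, a helicase needed at origins, by 0.71 and 0.97 with gemcitabine and co-treatment, and HROB, which loads MCM8 and MCM9 in repair, by 0.65 with gemcitabine. CDC7, the kinase that phosphorylates the ring to activate it, fell with co-treatment by 1.22 (SE 0.19, adjusted p = 0.000182), and against gemcitabine alone it fell by 0.75, where GINS4 rose by 0.47. With genistein ORC3 fell by 0.65 and TRAIP, a ubiquitin ligase of unloading, rose by 0.50. With co-treatment against genistein 6 were called higher and 4 lower, beside 16.6% and 14.9% of all genes, with CDT1 at 1.02, RECQL4 at 0.84, CDC6 at 0.58 and CDC7 at -0.65.

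Between the untreated lines 3 of the 26 partners were called higher in PANC1 and 10 lower, beside 27.9% and 24.3% of all genes. GINS4 was lower by -1.50, DONSON by -1.26 and GINS2 by -0.92 on the log2 scale, and CDC7 was higher by 0.89 (limma-voom).

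Cell cycle phase genes were described beside the members, also without GC correction. Of 10 genes of S phase entry, 8 were called higher and 0 lower in PANC1 with gemcitabine, 7 and 0 with co-treatment, and in MiaPaCa2 6 higher and 1 lower with either. Of 12 genes of G2 and mitosis, 6 and 9 were called lower in PANC1 with gemcitabine and co-treatment and 9 and 7 in MiaPaCa2, with 0 called higher. Over all genes 4.49% and 10.2% were called higher in PANC1 with gemcitabine and co-treatment and 3.03% and 6.9% lower, and in MiaPaCa2 14.9% and 20.3% higher and 14.6% and 20.2% lower. The medians of the S phase and the G2 and mitosis genes were 0.86 and -0.49 in PANC1 with gemcitabine and 0.71 and -0.63 in MiaPaCa2. In these bulk libraries more cells in a phase and more transcripts per cell cannot be told apart.

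**Figure D4:**
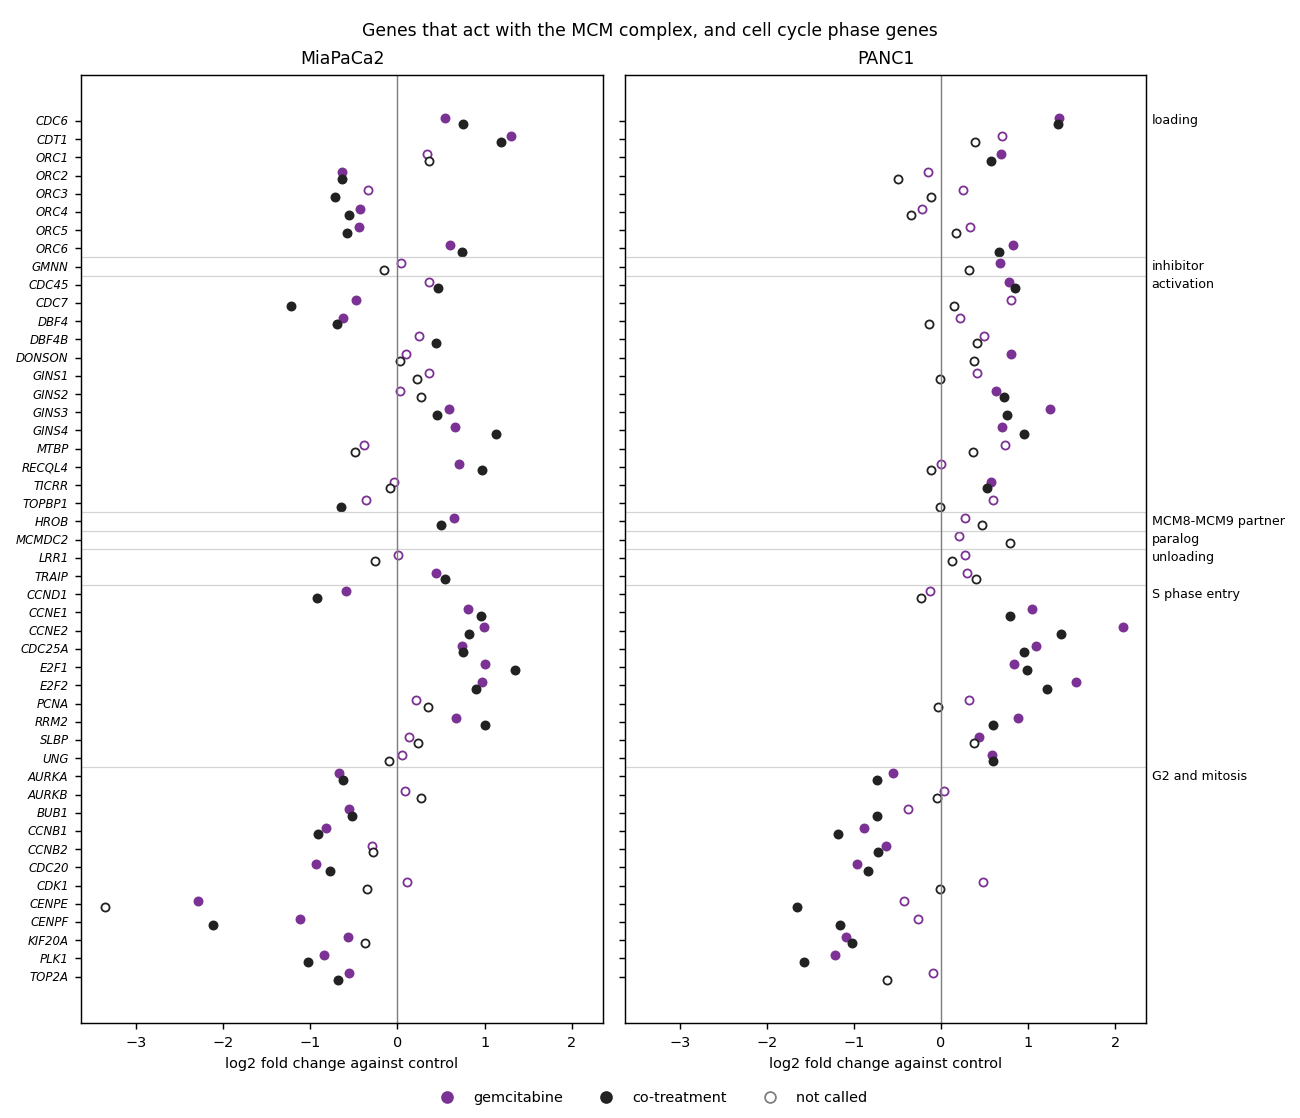
Log2 fold change against control (horizontal axis) of the 26 genes that act with the MCM ring and of 22 cell cycle phase genes, grouped by role, for gemcitabine and co-treatment in each line; filled circles were called. S phase entry genes lie mostly to the right and G2 and mitosis genes mostly to the left of 0 in both lines, and loading and activation genes lie on both sides in MiaPaCa2 and mostly to the right in PANC1.

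The members differed in how closely they followed the ring as a whole. As a description, each of 13475 genes was correlated with the mean log2 CPM of MCM2 to MCM7 over the 16 libraries, after the mean of each line was removed. The points share libraries and treatments, and the ring subunits are part of the mean. None of these values was corrected for GC content. MCM2 had Pearson's r = 0.96, MCM3 0.90, MCM4 0.90, MCM10 0.75, MCM7 0.73, MCM5 0.67, MCM8 0.65 and MCM6 0.61, whereas MCM9 had 0.13 and MCMBP -0.02. The low values depended on the scale, since on log2(FPKM + 1) MCM9 and MCMBP both had 0.52. Within MiaPaCa2 MCM5 had -0.22, beside 0.86 in PANC1, and on log2(FPKM + 1) it had -0.08 and 0.89. For MCM7 the values were 0.08 and 0.85, but 0.55 and 0.88 on log2(FPKM + 1).

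The non-members most like the mean were MYBL2, a transcription factor of the cell cycle, at 0.98, the zinc finger gene ZNF408 at 0.98, NFATC2IP at 0.96, FANCA, a core gene of the Fanconi anaemia repair pathway, at 0.96, and NFKBIB at 0.96. On log2(FPKM + 1) MYBL2 was again the highest at 0.98, and ZNF408, at 0.97, stayed among the 5 highest genes, while FANCA was at 0.81.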

How the data were processed

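RNA was sequenced as poly-A libraries in single reads of 50 bases. The authors mapped reads to GRCh37 with TopHat2 2.0.4, removed reads with several alignments with Picard 1.29 and counted reads per gene with HTSeq 0.6.1, and the counts were deposited as whole numbers without normalization. FPKM values per gene and per isoform were deposited as calculated by the authors with Cufflinks 2.1.1. The annotation release and strand setting are not given in the sources used here. Where counted genes on opposite strands overlap, their reads cannot be told apart without strand. In GENCODE v44lift37, which may differ from the annotation used for counting, 23.6% of MCM2 exon bases and 7.9% of those of MCM7 lie opposite another gene.

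Samples were grouped by their labels. Counts were tested with limma-voom (limma 3.58.1, edgeR 4.0.16, R 4.3.3) after filterByExpr and TMM, with 1 mean per group, the 8 libraries of a line in 1 model, and all 16 for comparisons between lines. P-values were adjusted by Benjamini-Hochberg over all genes tested, and the criteria (adjusted p at most 0.05, absolute log2 fold change at least 0.4, treated FPKM above 1 on average, with either line counting when controls were compared) follow the study. Interactions were called on adjusted p alone. Alternatives were edgeR's quasi-likelihood test, DESeq2 1.42.0, other scalings, log2 FPKM with pseudocounts of 1 and 0.1, a loess correction for GC content (span 0.3), other sets of libraries and a replicate block. The tests were checked on simulated counts drawn with the same spread for all genes and no GC slopes. That check does not cover the GC slopes of these libraries. All 10 members are named; of the 26 partners, up to 4 called with the largest change. Members, lists and tests were chosen with earlier results of these data known. The names I and II were not taken to pair libraries: in each line some same-numbered deviations correlated below 0.1 between groups, from -0.57 to 0.33. Exon lengths, GC content and transcript types came from GENCODE v44lift37. Markers were read as FPKM, with 17 of 18 matched.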

Additional observations from a re-analysis of the deposited data

Results flagged for a closer look

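The gemcitabine response differed between the lines for 2 of the 10 members, by a test of the difference itself, a share near the 15.3% of all genes called. After GC correction 7 members were called, a count that cannot be set against the 15.3%, which is without that correction. For MCM10 it was larger in PANC1 than in MiaPaCa2 by 0.84 on the log2 scale (limma-voom, adjusted p = 0.0121), 1.14 against 0.21 in the models of the single lines. For MCM4 it was larger by 0.40 (adjusted p = 0.0202), 0.88 against 0.38. The single-line values come from separate fits with their own scaling, so they do not subtract to the difference tested in the joint model. Both PANC1 libraries with gemcitabine lay above both controls for each gene. The MCM10 call was lost on both log2 FPKM scales, at 0.81 and 0.85 with pseudocounts of 1 and 0.1, and that of MCM4 with only the groups compared. The calls of both genes were also lost without MiaPaCa2 control I and without PANC1 gemcitabine II. That of MCM4 was lost without MiaPaCa2 gemcitabine I too. Over the 8 libraries left out in turn the values ran from 0.71 to 0.996 for MCM10 and from 0.33 to 0.48 for MCM4.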

How the results depend on the processing

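Over the 16 comparisons, the number of members called by limma-voom moved by more than 1.5 times in these cases; the cause was not tested except where the alternative itself changes the criterion or the libraries. In MiaPaCa2 with gemcitabine 1 member became 2 with the adjusted p alone, on both log2 FPKM scales (pseudocounts 1 and 0.1) and with all 16 libraries in 1 model, and 3 with library size only. With co-treatment in MiaPaCa2 2 became 4 with the adjusted p alone and 1 with GC correction, with or without the replicate block. Against genistein, 0 became 3 with the adjusted p alone, 2 with library size only and on both log2 FPKM scales, and 1 with GC correction, with or without the replicate block. In PANC1 an adjusted p of at most 0.01 left 3 of 5 with gemcitabine, 2 of 4 with co-treatment and 1 of 2 with co-treatment against genistein, and 0 of 2 differed between lines in the gemcitabine response. With only the groups compared, 1 of 4 remained called in PANC1 with co-treatment and 1 of 2 in the gemcitabine response between lines. With GC correction co-treatment against genistein gave 5 in PANC1, with or without the replicate block. The shares of all genes called after GC correction are not given, so these counts have no background beside them. The gemcitabine response between lines gave 7 with GC correction and 6 with the replicate block added, and the co-treatment response 6 with either, in place of 0, 1 with DESeq2 and 2 with library size only and on both log2 FPKM scales.

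Leaving out 1 library at a time, counts ran from 1 to 2 in MiaPaCa2 with gemcitabine, 1 to 3 with co-treatment and 0 to 2 with co-treatment against genistein, and from 1 to 5 in PANC1 with gemcitabine, 3 to 4 with co-treatment and 0 to 2 with co-treatment against genistein; they ran from 2 to 3 for the untreated lines, 0 to 4 for the gemcitabine and 0 to 2 for the co-treatment response between lines. A lone library was assumed to vary like the other groups. Of the called members none changed sign under any alternative run. The replicate block ended the calls of MCM8 in PANC1 with gemcitabine and of MCM2 with co-treatment against genistein, leaving 1 there, and ended no other call of a member; over all genes it lowered the calls in PANC1 with gemcitabine from 1272 to 535. Same-numbered libraries had deviations correlated below -0.1 between groups in 4 comparisons, and with crossed pairing of I and II, chosen after seeing the data, all-gene calls were 1461 and 5313 in MiaPaCa2 for co-treatment against gemcitabine and genistein, and 5025 and 1482 in PANC1 for co-treatment against control and gemcitabine. With 2 replicates per group, single genes rest on a spread shared across genes, and MCM9, with 233 to 802 counts per library, had the fewest counts of the members.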
